A study of Mus musculus with 16 samples.

Results

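MyoD-only regions of mouse myoblasts are stretches of the genome where the deposited MyoD list had a peak and the RUNX1, c-Jun and MyoG lists had none. They were chosen by the called peaks themselves: all peaks of the 4 lists on chromosomes 1 to 19 of the mouse build mm9 that shared at least 1 bp were merged, and merged regions that held MyoD alone were kept. This gave 6283 regions out of 97753 merged regions in all. A further 18 MyoD-only regions lay in a run of abnormally wide peaks on chromosome 2 and are described apart.

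The study mapped binding by chromatin immunoprecipitation and sequencing (ChIP-seq) in primary muscle cells of wild-type C57BL/6 mice aged 2 to 3 weeks, grown from satellite cells of the gastrocnemius. Proliferating myoblasts, 3 days in culture, served for RUNX1, MyoD and c-Jun. Myotubes served for MyoG, after 4 days of which the last 24 hours were in differentiation medium. The 16 samples formed 4 ChIP groups and 4 control groups of 2 each: mouse IgG for MyoD and for MyoG, rabbit IgG for c-Jun and rabbit non-immune serum for RUNX1. The cells were cultured primary cells, and the number of mice behind each culture is not given in the sources used here. No list carried a replicate or a read count. Depth is therefore unknown, no spread between cultures could be computed, and the ranges below are over the 19 chromosomes. The list taken as MyoG has an abbreviated name and was given to MyoG because the other 3 names match RUNX1, MyoD and c-Jun. The lists held 45201 MyoD, 42226 RUNX1, 41480 c-Jun and 61491 MyoG peaks on these chromosomes, and the files do not hold the controls' own values.

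MyoD belongs to the basic helix-loop-helix factors and commits cells to the muscle lineage. It pairs with E proteins and binds E-box motifs, many of them far from promoters. MyoG, a related factor, is switched on as myoblasts differentiate and recognises similar E-boxes, so many sites can be read by both. RUNX1 is a Runt-domain factor, and c-Jun is a subunit of AP-1, a factor active in proliferating cells. A site on the MyoD list alone is thus a site where a peak was called for the lineage factor in myoblasts, but none for either myoblast partner or for the later helix-loop-helix factor. A missing peak does not show that a factor was absent, since binding below the authors' threshold is not listed.

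MyoD-only regions made up 14.4% of the 43718 regions that held MyoD outside the chromosome 2 run. The share was similar along the genome: the lowest chromosome had 11.6%, the median chromosome 14.6% and the highest 17.4%. Chromosome 7 was lowest, with 302 of 2598 regions, and chromosome 3 was highest, with 421 of 2418. Regions with MyoD and MyoG alone were more numerous, at 12069, and regions on all 4 lists numbered 10531. MyoD regions that lacked MyoG were mostly MyoD-only. Of 9869 such regions, 63.7% were MyoD-only, while 2174 held MyoD and c-Jun, 481 RUNX1 and MyoD, and 931 all 3 myoblast factors.

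**Figure D1:**
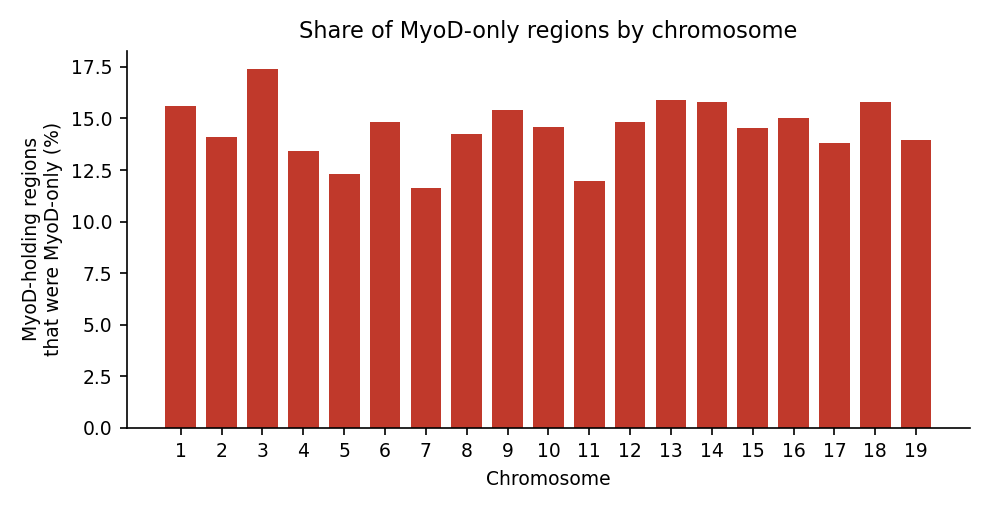
Share of MyoD-holding regions that were MyoD-only (y axis, percent) on each of chromosomes 1 to 19 (x axis), outside the wide run on chromosome 2. The bars lie between 11.6% on chromosome 7 and 17.4% on chromosome 3.

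The density of MyoD-only regions was between 1.98 per Mb on chromosome 7 and 3.10 per Mb on chromosome 9, with a median of 2.63. All MyoD-holding regions together varied from 13.6 to 23.7 per Mb. Chromosome 11 had the most MyoD-holding regions per Mb but, at 2.83, not the most MyoD-only ones, and its MyoD-only share was 12.0%.

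MyoD-only regions were mostly low on the authors' MyoD score, a value per peak whose scale is not stated and which is used here only to rank peaks inside the list. It belongs to the same peaks that chose these regions, so its values are a description without a test. The lowest score among MyoD-only regions was 50.02, the quartiles were 65.0, 84.9 and 136, and the highest was 2701. For comparison, the whole MyoD list outside the run had a median of 177, and 16.4% of MyoD-only regions reached it. Scores under 100 belonged to 60.7% of MyoD-only regions, against 34.5% of regions with MyoD and MyoG alone.

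Every other class of MyoD region had a higher median MyoD score than the MyoD-only regions. It was 96.2 with RUNX1, 104 with RUNX1 and c-Jun, 112 with c-Jun, 140 with MyoG, 213 with RUNX1 and MyoG, 314 with c-Jun and MyoG, and 530 with all 3. Classes that lacked MyoG thus lay nearest to the MyoD-only regions. Set against MyoD with MyoG alone, the MyoD-only median was lower on 19 of 19 chromosomes. It ranged from 79.4 to 91.1 by chromosome, below the range of 132 to 147 for MyoD with MyoG, and the ranges did not overlap. The ranges with RUNX1, 76.5 to 146, and with RUNX1 and c-Jun, 75.9 to 147, did overlap the MyoD-only range. With c-Jun alone it was 95.2 to 147. A region with several MyoD peaks was given its highest score, while each MyoD-only region held 1 peak. A score of 3100, called the ceiling here because many peaks sit at exactly this value, was reached by 0 MyoD-only regions. The number was also 0 for MyoD with c-Jun alone and for RUNX1 with MyoD alone, and 2 of 931 for RUNX1, MyoD and c-Jun. It was 33 for regions with MyoD and MyoG alone and 681 for regions on all 4 lists.

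**Figure D2:**
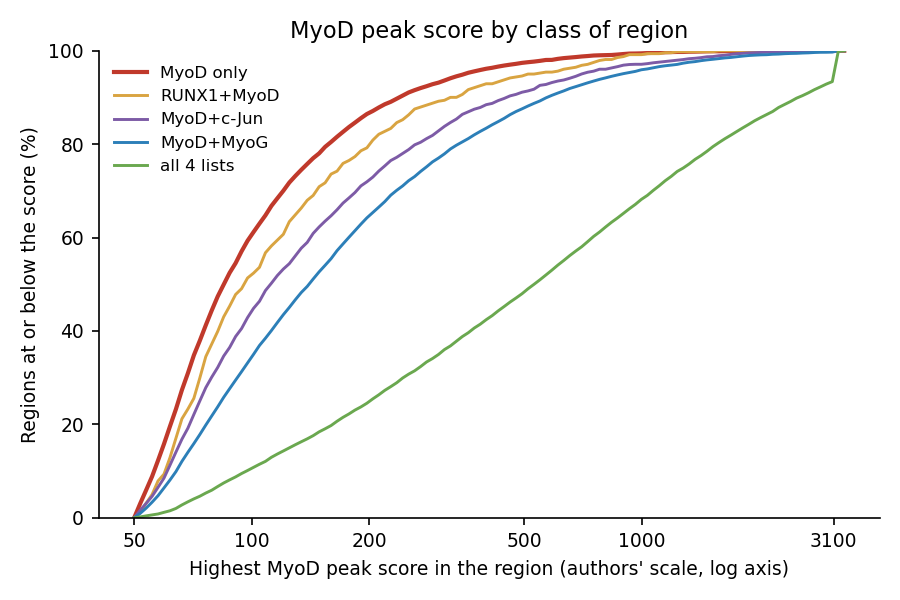
Cumulative share of regions (y axis, percent) at or below a given highest MyoD score on the authors' scale (x axis, log axis), for MyoD-only regions and 4 other classes. The MyoD-only curve is farthest left, with a median of 84.9 against 140 for MyoD with MyoG and 530 for all 4 lists.

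The share of MyoD peaks that stood alone was lower in each stronger class of the list. Split into 5 classes of equal size by score, MyoD-only peaks were 31.2% of the weakest class, then 19.9%, 12.0% and 5.19%, and 1.21% of the strongest. On single chromosomes the share was between 25.5% and 35.6% in the weakest class and between 0.604% and 1.82% in the strongest, so these ranges did not overlap. In 10 classes it was 34.6% at the weak end and 0.421% at the strong end, which is 1565 and 19 peaks. The other kinds of region without MyoG also had lower shares at the strong end. From the weakest to the strongest of the 10 classes, MyoD with c-Jun went from 7.30% to 1.06% and RUNX1 with MyoD from 2.03% to 0.0443%. RUNX1, MyoD and c-Jun together went from 3.52% to 0.288%. MyoD with MyoG alone followed another course: its share was 29.2% in the weakest of the 10 classes, 34.0% in class 4 and 8.41% in the strongest. Peaks on all 4 lists made up 8.34% of the weakest class and 64.8% of the strongest.

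**Figure D3:**
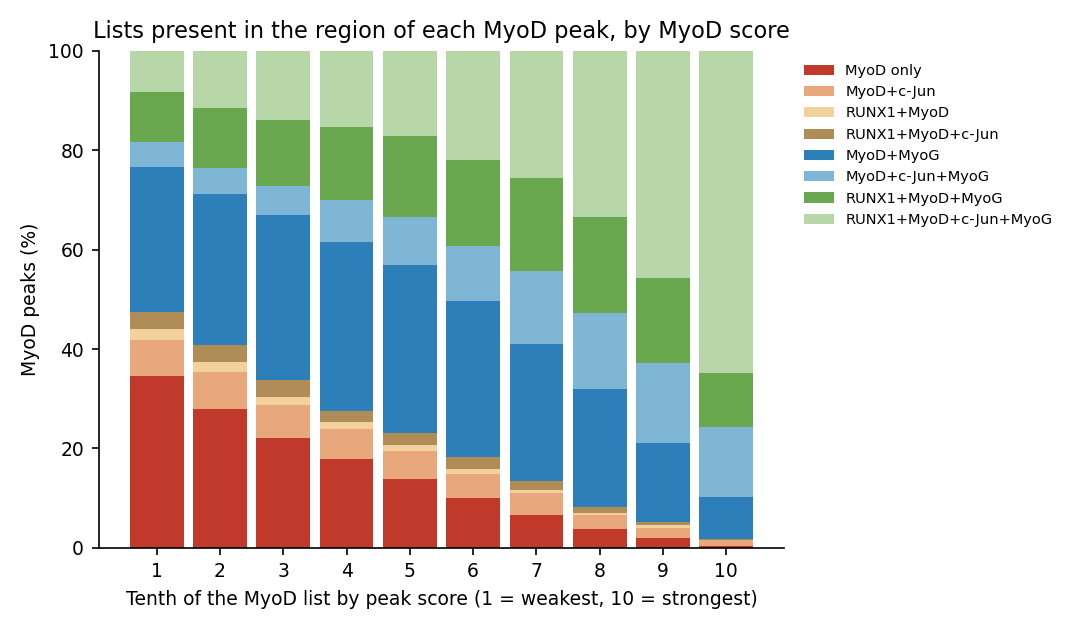
Composition of the MyoD list (y axis, percent of MyoD peaks) in 10 classes of MyoD score from weakest to strongest (x axis), by which lists were present in the region. MyoD-only peaks, at the base of each bar, made up 34.6% of the weakest class and 0.421% of the strongest.

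Single-factor regions of the other lists were also weak within their own list. RUNX1-only and c-Jun-only regions were less so than MyoD-only regions in both the strongest and the weakest class. MyoG-only regions had a smaller share than MyoD-only regions in both classes. The strongest of 5 score classes held 1.73% of MyoD-only regions' peaks, 1.16% for MyoG-only, 8.03% for RUNX1-only and 9.01% for c-Jun-only regions. The weakest class held 44.9% for MyoD-only, 38.4% for MyoG-only, 33.9% for RUNX1-only and 29.4% for c-Jun-only. Both helix-loop-helix factors thus had few strong peaks that stood alone. MyoD had the smallest single-factor share of the regions it held, 14.4%, against 25.6% for RUNX1, 27.9% for MyoG and 34.0% for c-Jun. The lists differ in length and cell stage, so these shares are not measures of change between factors.

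MyoD-only regions were also narrow. Each of the 6283 held exactly 1 MyoD peak, which follows from the merging rule where peaks of a list do not overlap each other. Their median width was 697 bp, with quartiles of 578.5 bp and 815 bp, and together they covered 4453 kb. The MyoD peak itself had a median width of 782 bp in regions with MyoG alone and 930 bp in regions on all 4 lists. It was closer to the MyoD-only value in regions without MyoG: 716 bp with RUNX1, 746 bp with RUNX1 and c-Jun, and 771 bp with c-Jun. Width varied with score among MyoD-only regions, from a median of 601 bp in the weakest of the 5 score classes to 923 bp in the strongest. Wide regions were rare: 14 exceeded 1500 bp, and 2 exceeded 2000 bp.

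MyoD-only regions lay at widely varying distances from the peaks of the other lists. The gap, in bases between the edges of a region and the nearest peak of any other list, had quartiles of 1.63 kb, 5.22 kb and 14.6 kb. Such a peak lay within 150 bp of 191 regions, within 1 kb of 1131 (18.0%) and within 10 kb of 4136 (65.8%). At the far end, 475 regions had none within 50 kb. The nearest peak was from the c-Jun list for 43.2% of regions, from MyoG for 32.3% and from RUNX1 for 24.5%, with 4 ties. These shares also depend on the length of each list and on the width of its peaks.

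Taken by factor, the median gap from MyoD-only regions was 14.5 kb to RUNX1, 12.0 kb to c-Jun and 10.7 kb to MyoG. Within 10 kb there was a RUNX1 peak for 40.9% of regions, a c-Jun peak for 44.8% and a MyoG peak for 48.3%. All 3 lists had a peak within 10 kb of 1506 regions (24.0%), and none did for 2147 (34.2%). Neighbours within 1 kb were of about median strength in their own lists. Their median score was 193 for RUNX1, 192 for c-Jun and 194 for MyoG, against 178, 172.5 and 190.3 over those whole lists.

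RUNX1 and c-Jun peaks lay farther from MyoD-only regions than from regions with MyoD and MyoG alone. The median gap of MyoD with MyoG regions was 8.79 kb to RUNX1 and 9.23 kb to c-Jun, and 53.1% and 52.1% had such a peak within 10 kb. The MyoD-only share within 10 kb was lower on 19 of 19 chromosomes for RUNX1 and on 19 of 19 for c-Jun. By chromosome it was 33.7% to 50.7% for RUNX1, against 46.2% to 62.0% for MyoD with MyoG, so the ranges overlapped. Regions with MyoD and c-Jun alone were close to the MyoD-only regions on this measure, with RUNX1 within 10 kb of 42.3% and MyoG within 10 kb of 48.3%. The 481 regions with RUNX1 and MyoD alone were not: c-Jun lay within 10 kb of 55.9% and MyoG within 10 kb of 56.5%. Since the same lists chose the regions, no test was run on these distances.

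**Figure D4:**
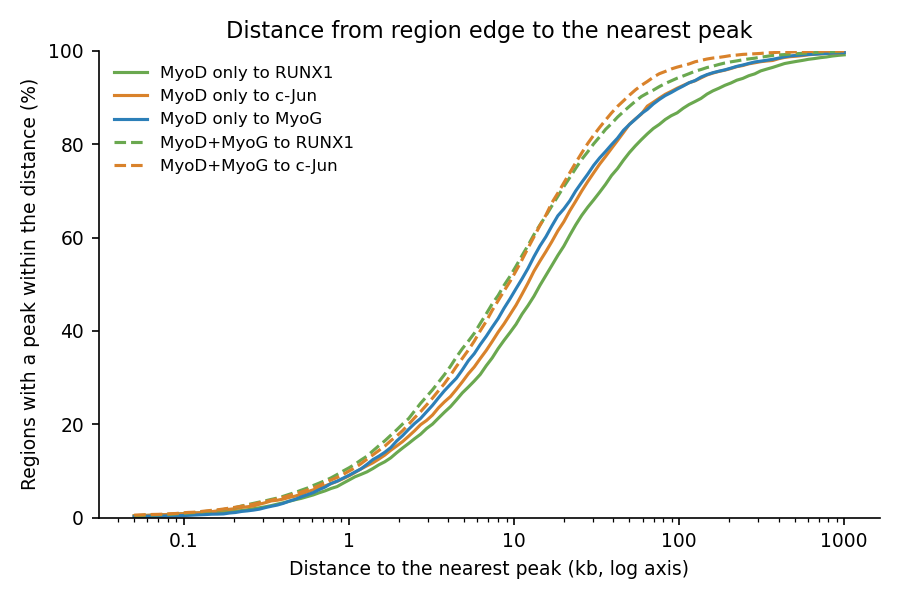
Share of regions (y axis, percent) with a peak of the named list within a given distance of the region's edge (x axis, kb, log axis). Solid lines are MyoD-only regions and dashed lines regions with MyoD and MyoG alone. At 10 kb the solid lines are at 40.9% for RUNX1 and 44.8% for c-Jun, below the dashed lines of the same lists at 53.1% and 52.1%. The solid MyoG line, at 48.3%, has no dashed counterpart, since the compared regions hold MyoG.

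The lower share of RUNX1 and c-Jun neighbours was also present at matched MyoD score. In the weakest of the 5 score classes, RUNX1 lay within 10 kb of 40.5% of MyoD-only regions and 51.8% of MyoD with MyoG regions. In the strongest class these values were 42.2% of 109 regions and 53.2% of 1097. For c-Jun they were 44.0% and 49.7% in the weakest class, and 45.0% and 52.8% in the strongest. Among MyoD-only regions the median gap to any other list was between 4.82 kb and 5.95 kb over the 5 classes. A peak of another list lay within 10 kb of 65.0% in the weakest class and 64.2% in the strongest. Within 1 kb these shares were 17.5% and 12.8%.

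The nearest neighbouring region, of whatever class, was a c-Jun-only region for 18.2% of MyoD-only regions, a MyoG-only region for 13.5%, MyoD with MyoG for 11.6%, RUNX1-only for 10.2% and another MyoD-only region for 9.55%. Those classes made up 14.2%, 16.6%, 12.3%, 10.8% and 6.43% of all regions. C-Jun-only and MyoD-only neighbours were thus above their overall shares, and MyoG-only neighbours below. Of regions with MyoD and MyoG alone, 6.11% had a MyoD-only neighbour. The nearest region held MyoG for 51.8% of MyoD-only regions and for 62.9% of MyoD with MyoG regions. Along the chromosomes, 82.7% of MyoD-only regions had no other MyoD-only region next to them. The like share was 74.9% for regions with MyoD and MyoG alone, which are a larger part of all regions. What share the numbers of each class alone would give was not computed. The remaining MyoD-only regions formed 438 successive pairs, 46 runs of 3 and 14 runs of 4 or more.

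The rule that sets a MyoD-only region apart is a gap of at least 0 bp, and regions on either side of that limit had similar scores. Just inside it, the MyoD-only region at chr1:93854101-93854681 touched a RUNX1 peak without sharing a base, and its MyoD score was 62.0. Regions at chr6:52767970-52768529 and at chr18:55520447-55521137 lay 1 bp from a RUNX1 and a c-Jun peak, with MyoD scores of 60.6 and 73.3. Those at chr11:80764603-80765467 and at chr14:76774170-76774775 had gaps of 4 bp to a RUNX1 and a c-Jun peak, with MyoD scores of 155 and 143. Just outside the rule, the 5 MyoD regions with the smallest shared span all met a c-Jun peak, by 2 to 4 bp, and had MyoD scores of 68.0, 61.4, 61.1, 195 and 324. Of these, the region scoring 61.4 also held RUNX1 and MyoG, and the region scoring 61.1 also held MyoG. Within 150 bp of the limit, 191 MyoD-only regions had a median MyoD score of 87.7, and 141 regions that shared at most 150 bp had a median of 90.3.

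The 10 MyoD-only regions of highest score lay on 10 different chromosomes and had scores from 1433 to 2701. The highest lay at chr16:35316768-35317557, 13.3 kb from the nearest MyoG peak and 45.8 kb from RUNX1. The second lay at chr8:98409004-98409952, had a score of 2511, and had peaks of c-Jun, MyoG and RUNX1 at 0.691 kb, 0.954 kb and 1.31 kb. These strong peaks thus stood alone in unlike surroundings.

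Some of the 10 were remote from all other lists. The region at chr17:36621145-36622067, with a score of 2061, was 128 kb from its nearest neighbour, a MyoG peak. That at chr15:52339804-52340760, with a score of 1736, was 75.0 kb from c-Jun and 173 kb from both RUNX1 and MyoG. The region at chr10:22494139-22495001, with a score of 2114, was 40.4 kb from RUNX1. Another, at chr13:63714157-63715226 with a score of 1454, had its nearest neighbour, a c-Jun peak, at 28.4 kb.

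The other 4 had a neighbour within 10 kb. Those at chr11:18851521-18852342 and at chr2:18686228-18687222 had scores of 1721 and 1594, with a c-Jun peak at 1.08 kb and a RUNX1 peak at 1.04 kb. Those at chr9:14027033-14028054 and at chr5:92576960-92577919 had scores of 1501 and 1433, with neighbours at 5.74 kb and 9.05 kb. The widths of all 10 were between 790 bp and 1070 bp. In all, 35 MyoD-only regions had a score over 1000.

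The MyoD-only regions farthest from any other list had scores on both sides of the MyoD-only median of 84.9. The region at chr8:100933564-100934123 had a score of 58.8 and lay 2171 kb from the nearest peak of another list, which was c-Jun. The next were at chr5:62323255-62324103, with a score of 112 and a gap of 1654 kb, and at chr7:15171580-15172443, with a score of 123 and a gap of 1283 kb. Over the 475 regions with a gap above 50 kb the median score was 75.6. In the 6 bins of smaller gap it was between 83.7 and 87.7.

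MyoD-only regions were spread over 5091 windows of 100 kb, of which 4112 held 1 and 810 held 2. All 3 other lists had peaks in 66.9% of these windows, and 466 windows (9.15%), with 521 MyoD-only regions, held no peak of any other list. Such shares were not computed for windows without MyoD-only regions, so they are not shown to be particular to these windows. The most in a window was 12, at chr3:25400001-25500000. The next 4 windows by number held 5 each: chr8:19900001-20000000, chr9:95000001-95100000, chr10:6300001-6400000 and chr15:62400001-62500000. These 4 windows also held between 1 and 7 peaks of the other lists.

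The chromosome 3 window held no peak of RUNX1, c-Jun or MyoG. Its 12 MyoD-only regions spanned 39.6 kb, from 25416353 to 25455918, and covered 36.1% of that span. The nearest peak of any other list was between 371 kb and 410 kb from each of them. Scores were between 50.3 and 310 with a median of 106, and widths were between 562 bp and 1977 bp with a median of 1167 bp, above the 697 bp of all MyoD-only regions. They opened the longest succession of MyoD-only regions, 17 with no region of another class between them, which reached to 26831359. The chromosome 8 window held regions of 627 bp to 4592 bp, and its 5 scores lay between 53.7 and 91.3. Of the 14 MyoD-only regions wider than 1500 bp, 3 lay in the chromosome 3 window and 3 in the chromosome 8 window. Reads and control libraries were not analysed here, so whether the peaks of these 2 windows are MyoD binding or reflect repeated sequence or DNA copy number was not tested.

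**Figure D5:**
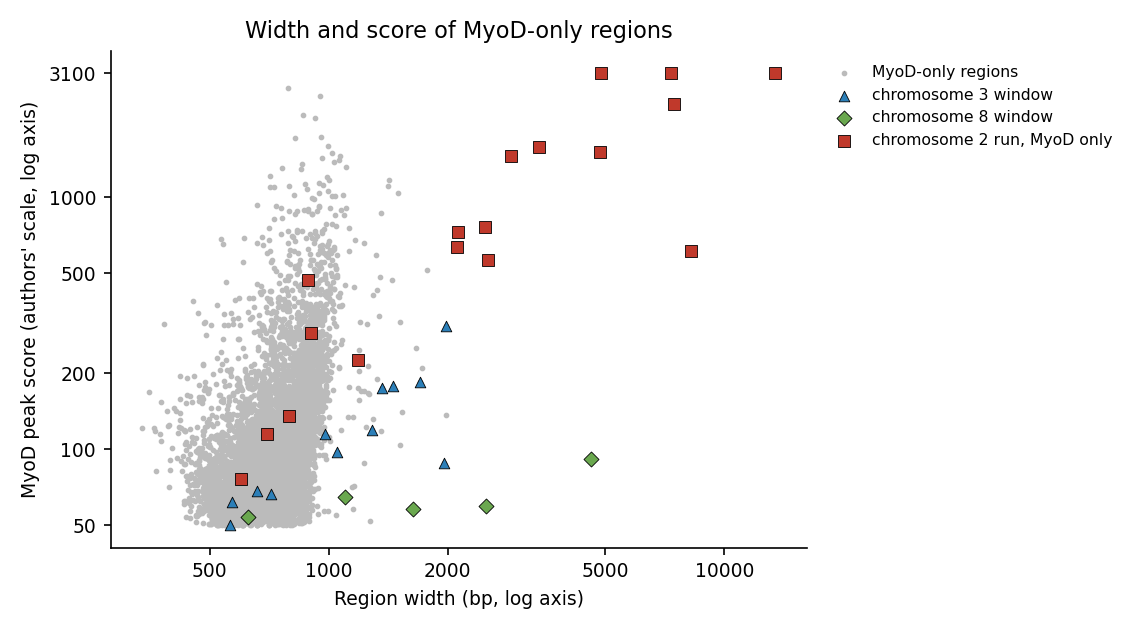
Width (x axis, bp, log axis) and MyoD score (y axis, authors' scale, log axis) of each of 6283 MyoD-only regions in grey, with those in the chromosome 3 window as blue triangles and in the chromosome 8 window as green diamonds, and the 18 of the chromosome 2 run as red squares. The chromosome 2 run reaches 13445 bp and 3100, while the widest grey or green point is 4592 bp.

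The run on chromosome 2 is kept apart because many of its peaks were far wider than MyoD peaks elsewhere on these chromosomes. It spans chr2:77707619-77870638, with 28 MyoD peaks in 26 merged regions, 18 of them MyoD-only. Those 18 had widths from 602 bp to 13445 bp with a median of 2508 bp, and scores from 76.4 to 3100 with a median of 679. Of the 18, 12 were wider than 2000 bp, against 2 of the 6283 elsewhere. In the run, 3 MyoD-only peaks were at the ceiling of 3100, at chr2:77785213-77790084, chr2:77808388-77815703 and chr2:77820478-77833922. Its MyoD peaks at chr2:77712419-77714273, chr2:77725106-77734152, chr2:77768852-77778656 and chr2:77841917-77847355 were also at 3100 but lay in regions that met another list. None of the 6283 other MyoD-only regions, which reached 2701, had such a score. The run's other 8 regions, which met another list, held 3 RUNX1, 4 c-Jun and 8 MyoG peaks. For this run, too, MyoD binding was not told apart from repeated sequence or DNA copy number.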

How the data were processed

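Per the labels and the files, each factor had 1 deposited peak list on build mm9, given as intervals with a score column written by the authors' peak caller. Peak names begin with MACS. Its version, its settings, the control used and any pooling of replicates are unstated in the labels and headers. The submitters' processing notes name CASAVA 1.7.0 and 1.8.2 and Bowtie. The score's scale is not stated, the lowest is 50.01 in each list, and scores were only ranked within a list.

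Peaks sharing at least 1 bp were merged, and touching peaks were not. Gaps count the bases between edges. Score classes are of equal size over the MyoD list outside the chromosome 2 run. A region falls in the 100 kb window that holds its centre. mm9 chromosome lengths came from GenomeInfoDb 1.38.1. Scripts ran on scipy 1.17.1, pandas 2.3.3, numpy 2.4.6 and Python 3.11.15, with matplotlib 3.10.9 for plots. Merging and gaps were checked against brute force on 20 simulated sets.

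The members and measures were chosen with earlier results of these data known. Named regions followed a rule: the 10 highest scores, the 3 most remote regions, the 5 fullest windows, the 5 regions on each side of the overlap limit, and the run's peaks at the ceiling. The rule also asked for the regions with most MyoD peaks, but each held 1. Alternatives changed the overlap rule, the score threshold, the chromosomes, the distance and the score classes. The planned E-box test, genes and sequences were not analysed here, since no sequence or annotation of build mm9 was used.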

Additional observations from a re-analysis of the deposited data

Results flagged for a closer look

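The rule leaves out chromosome Y, where the MyoD list alone had peaks. All 19 MyoD peaks there were MyoD-only, as the other 3 lists held 0 peaks on that chromosome. Their median score was 293, against 84.9 for MyoD-only regions of chromosomes 1 to 19, and 7 of them were at or above the ceiling of 3100. The lists hold no values of the control libraries, so a background level was not measured.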

How the results depend on the processing

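Of 69 alternative values, 37 stayed within the 95% binomial interval of the value reported (exact for shares, by order statistics for medians) or, for counts, within 1.5 times; 32 did not. Alternatives with another distance, number of score classes or part of a list measure another quantity, so this tally is not a measure of robustness. The margin for counts was wider than the interval for shares, so a count could stay while its share moved. The binomial interval covers counting of regions only. Adding chromosome X or the chromosome 2 run, or leaving out the 5 named windows (added after seeing the data), moved nothing beyond it. Counting peaks within 150 bp, 500 bp or 1000 bp as meeting lowered the MyoD-only share from 14.4% to 13.9%, 12.9% and 11.8%, by construction. The next 2 alternatives count MyoD peaks, not regions, so their shares are not on the base of the 14.4%. If at least 50% of the shorter peak had to be shared, 6710 of 45173 MyoD peaks (14.9%) stood alone. Under the reported rule 6283 of these peaks stood alone. With centres within 150 bp, 10900 MyoD peaks (24.1%, median score 99.9) stood alone. With the stronger 50% of the other 3 lists alone, 15245 regions (34.7%, median score 98.5) did. In the stronger 50% of the MyoD list, 1032 regions did (4.68%), with a median score of 266, width of 860.5 bp and gap of 6.07 kb; 38.8%, 43.1% and 45.0% had RUNX1, c-Jun and MyoG within 10 kb, and 2.62% had a MyoD-only neighbour. The shares with RUNX1, c-Jun and MyoG were 8.09%, 8.99% and 9.10% within 1 kb (added after seeing the data), 27.2%, 29.7% and 32.4% within 5 kb, and 78.2%, 84.3% and 84.2% within 50 kb. Members in the strongest score class, chosen after seeing the data, had a median gap of 5.88 kb. The weakest of 10 score classes was 34.6% MyoD-only, and the strongest 0.421%, or 1.47% in 5 classes without ceiling peaks. No paired analysis was possible because each factor had a single list in which its replicates cannot be separated, and replicates could not be left out. The E-box alternatives were not run. Depth is unknown, so the number of MyoD-only regions depends on where the authors' threshold fell in each list.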

Other observations

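Chromosome X, outside the rule, had a larger MyoD-only share than any of chromosomes 1 to 19. There, 186 of 722 MyoD-holding regions (25.8%) were MyoD-only, against 17.4% on the highest of the other chromosomes, and their median MyoD score was 95.4. On X, 2 MyoD-only regions were at the ceiling of 3100, chrX:120115625-120119810 and chrX:121306311-121309158, with widths of 4186 bp and 2848 bp. They were chosen after their values were seen. Whether they are MyoD binding or reflect repeated sequence or DNA copy number was not tested. Outside the chromosome 2 run, the 5 widest MyoD-only regions of chromosomes 1 to 19 were the pair of 4592 bp and 2503 bp in the chromosome 8 window, the pair of 1977 bp and 1960 bp in the chromosome 3 window, and chr9:3021941-3023923 with 1983 bp.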
